A study of Rattus norvegicus with 54 samples.

Results

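Rosiglitazone was set against 3 other ligands of the nuclear receptor PPARgamma in the liver of obese rats. The rule took the 3 liver arrays of rosiglitazone-treated rats against the mean of 9 liver arrays, 3 each for pioglitazone, troglitazone and AG035029, so 12 of the 54 arrays of the series entered the comparison. The comparison was chosen by measured values, the liver signals of Obp3, an odorant-binding gene that kept its untreated level under rosiglitazone only. Those signals are given as a description without p-values. Obp3 stayed in the fits, and where it lies past a threshold it is not counted as a call. Every other liver difference belongs to a comparison picked in that way, and counts of calls in it are printed beside the share of all probe sets called.

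All rats were male and of the Zucker strain. The ligand-treated groups, rosiglitazone, pioglitazone, troglitazone and AG035029, were obese homozygotes (fa/fa), which lack a working leptin receptor. The untreated obese group had the same genotype and normal chow, and the lean group carried 1 copy of the mutation (fa/+) and had normal chow. Each of these 6 groups had 3 arrays per tissue, and each array held RNA pooled from 2 rats, so rat-to-rat differences within a pool were averaged before measurement. The tissues of a group may come from the same rats, so they are not taken as independent of each other. Liver, epididymal adipose tissue and gastrocnemius muscle were profiled on Affymetrix Rat Expression 230A arrays. Doses, treatment times and ages are not stated in the labels, so differences between ligands are differences between these groups and not comparisons at a known matched dose.

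Pioglitazone, rosiglitazone and troglitazone are thiazolidinediones, and AG035029 is known here by its code name only. PPARgamma binds DNA as a partner of the retinoid X receptor and drives genes of fat cell formation and lipid storage. It is most abundant in adipose tissue, while hepatocytes of obese rodents also make it. The liver responds to such ligands both directly and through what adipose tissue releases. The proteins of the alpha-2u globulin family, to which Obp3 is related, are small lipocalins that carry hydrophobic odorants. Male rat liver secretes them for excretion in the urine, and androgens and growth hormone are known to raise them.

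The arrays carried liver RNA. All 7 measured hepatocyte markers stood at or above the 98.95th percentile of signals on each of the 18 liver arrays, and albumin (Alb) ranged from 46676 to 106169. Median signals lay between 201 and 248 per liver array, 9519 of 15866 probe sets were bright enough to be tested, and the residual spread had a median SD of 0.32 in log2. A log2 difference below is a difference of group means of log2(signal + 20), its error is the standard error from limma, and an adjusted p is limma's p after Benjamini-Hochberg adjustment over all 9519 probe sets, called at 0.05. Nothing in the labels says that the pools of a group came from separate experiments, so these p-values measure the spread between the arrays.

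Some liver arrays stood apart. Rosiglitazone replicate 1 had the lowest albumin signal, 46676, against 86383 and 90597 on rosiglitazone replicates 2 and 3, and the lowest median signal, 201. Its median correlation with the other liver arrays was 0.933, against 0.910 and 0.918 on rosiglitazone replicates 2 and 3. Over all liver arrays that value ranged from 0.908 to 0.933, so replicates 2 and 3 were the less typical ones by this measure. Troglitazone replicate 3 carried skeletal muscle transcripts, with an actin (Acta1) signal of 13627 against 9.8 to 316 on the other 17 liver arrays. Troglitazone replicate 2 had the highest beta-globin (Hbb) signal, 33051. The ratio of the 3' to the 5' control probe sets of beta-actin, a measure of RNA integrity, was 1.82, 3.27 and 2.22 on the rosiglitazone arrays. It lay between 1.44 and 2.67 on the 9 arrays of the other ligands and between 1.43 and 3.52 on the untreated obese arrays.

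Obp3 was high in rosiglitazone-treated liver and low under each of the other ligands. On probe set 1387985_a_at the rosiglitazone arrays had signals of 2020, 2300 and 3925. The signals were 163, 347 and 712 under pioglitazone, 445, 977 and 195 under troglitazone, and 185, 124 and 414 under AG035029. The untreated obese arrays had 2241, 3064 and 3440. Every rosiglitazone array lay above all 9 arrays of the other ligands and within or close to the untreated range. The mean log2 level was 11.37 ± 0.50 (SD, n = 3) under rosiglitazone, 8.52 ± 1.001 under pioglitazone, 8.86 ± 1.11 under troglitazone, 7.87 ± 0.81 under AG035029 and 11.50 ± 0.32 in untreated obese liver. In lean liver the signals were 10286, 17898 and 13452, above every obese array, so the untreated level that rosiglitazone kept was itself below the lean one. The difference of rosiglitazone from the other ligands was 2.96 in log2, or 7.77-fold, and its difference from untreated obese liver was -0.12.

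A second Obp3 probe set also had rosiglitazone above the other ligands on average, with a smaller distance. Probe set 1370479_x_at, whose suffix marks probes that can also bind related sequences, had signals of 1189, 1844 and 3556 under rosiglitazone. The other ligands gave 415 to 1304, and untreated obese liver gave 2035, 2530 and 1756. Here the lowest rosiglitazone array overlapped the range of the other ligands. The log2 difference of rosiglitazone from the other ligands was 1.31, and from untreated obese liver -0.07. In adipose tissue and muscle both probe sets were below the intensity filter, with geometric mean signals of 9.92 to 79.4 and 7.07 to 114 per group, so the pattern was not measurable there.

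The 2 probe sets matter because Obp3 has close relatives. RefSeq (GRCr8) places Obp3, Mup4 and Mup5, the last 2 being major urinary protein genes, on chromosome 5. The 300-base promoters of Obp3 and Mup5 are printed to show how alike the copies are, at chr5:79640626-79640925 and chr5:79999646-79999945 on the minus strand. Capitals mark letters that differ between the aligned sequences.
Obp3: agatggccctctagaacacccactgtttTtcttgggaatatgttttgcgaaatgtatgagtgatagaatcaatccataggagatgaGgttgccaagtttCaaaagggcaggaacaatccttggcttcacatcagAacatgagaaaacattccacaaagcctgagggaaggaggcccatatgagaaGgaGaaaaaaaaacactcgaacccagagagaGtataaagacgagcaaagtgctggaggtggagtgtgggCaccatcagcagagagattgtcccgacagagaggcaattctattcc
Mup5: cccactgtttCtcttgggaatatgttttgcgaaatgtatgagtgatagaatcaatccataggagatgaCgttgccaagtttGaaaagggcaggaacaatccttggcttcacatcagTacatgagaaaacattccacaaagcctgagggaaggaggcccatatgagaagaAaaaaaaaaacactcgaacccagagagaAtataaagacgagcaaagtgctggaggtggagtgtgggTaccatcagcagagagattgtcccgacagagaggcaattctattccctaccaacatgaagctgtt
Over 281 aligned bases 274 were identical, with 7 mismatches and 1 gap base, or 97.5%. Mup4 and Obp3 were 97.2% identical over the same length. Array probes bind transcripts, whose sequences were not compared, so these promoter values do not measure how far a probe set binds relatives.

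The tested Mup5 probe set did not show the rosiglitazone pattern. Probe set 1388031_x_at, whose suffix also marks probes that can bind related sequences, had 1866, 2564 and 2318 under rosiglitazone. It had 1265 to 2813 under the other ligands, and 2677, 2257 and 3094 in untreated obese liver. Its signal cannot be assigned to Mup5 alone. The log2 difference of rosiglitazone from the other ligands was 0.07 ± 0.15 (95% interval -0.25 to 0.40, adjusted p = 0.981), so a change of the size of that in Obp3 lay outside the interval. The 2 other Mup5 probe sets were below the filter. Rup2, listed with this family but placed by RefSeq on chromosome 8, away from the cluster, had 4 tested probe sets, among them 1370396_x_at with a log2 difference of -0.08 ± 0.14 (adjusted p = 0.97). The nasal odorant-binding gene Obp1f differed by 0.15 ± 0.33 (adjusted p = 0.981). Lcn2, the iron-scavenging lipocalin of the acute phase, had 1344, 249 and 1259 under rosiglitazone against 60.8 to 402 under the other ligands. Its log2 difference of 1.60 ± 0.51 did not pass (adjusted p = 0.519), and 1 of the 3 rosiglitazone arrays lay inside the range of the others.

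**Figure D1:**
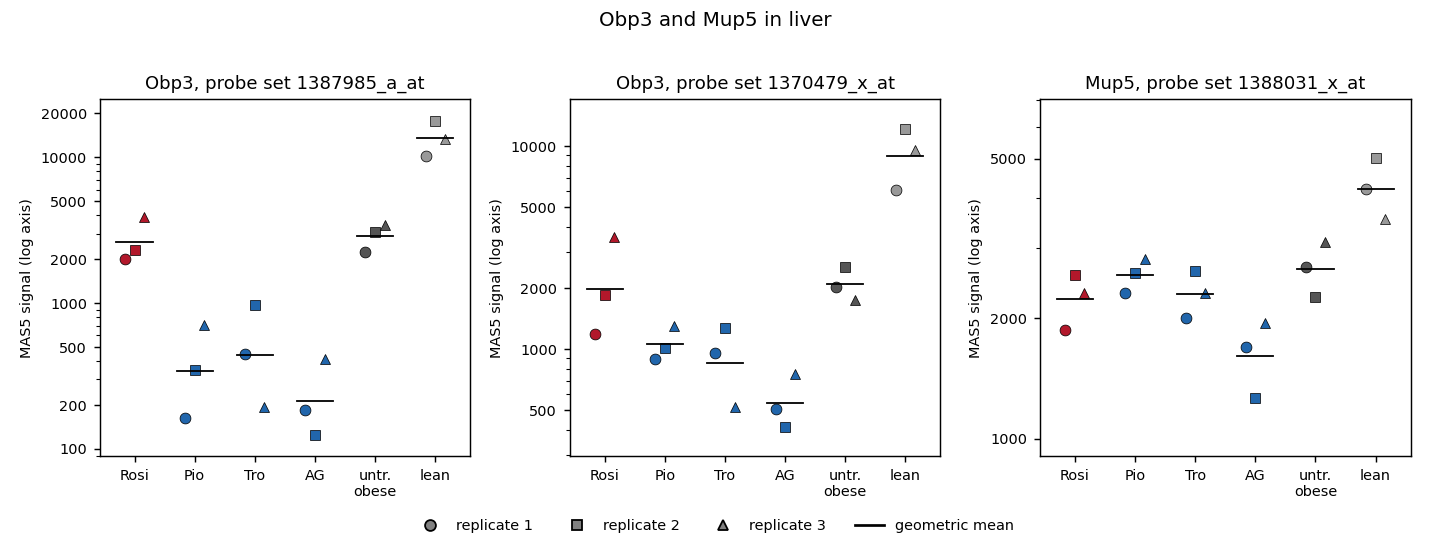
MAS5 signals (log axis) of both Obp3 probe sets and of Mup5 on every liver array, by group; symbols mark replicates and bars the geometric mean. On 1387985_a_at the rosiglitazone arrays sit between 2020 and 3925, with the untreated obese arrays and above the 9 arrays of the other ligands. The Mup5 probe set shows no such gap.

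Among the male-biased liver genes, which respond to growth hormone as the alpha-2u globulins do, none passed. Of 12 tested members 6 were above 0 and 6 below, where 51.3% of all probe sets were above, with a median log2 difference of 0.00, beside 0.01 over all probe sets tested. Cyp2c11, the main male-specific cytochrome P450 of rat liver, had 11164, 13569 and 20535 under rosiglitazone and 3370 to 22488 under the other ligands. Its log2 difference was 0.61 ± 0.32 (adjusted p = 0.871). Carbonic anhydrase 3 (Car3) had 4651, 5619 and 5687 under rosiglitazone, against a median of 2219 and a range of 1778 to 7683 under the other ligands, a log2 difference of 0.93 ± 0.29 (adjusted p = 0.519). Of 13 tested genes of growth hormone signalling 1 was higher and 1, Igfbp2, was lower at an unadjusted p under 0.05, where 2.59% and 3.25% of all probe sets were. The higher one, the growth hormone receptor gene Ghr, had 6473, 6137 and 5553 under rosiglitazone, above the 3204 to 5510 of the other ligands, a log2 difference of 0.43 ± 0.14 (adjusted p = 0.519). Igf1, the hormone that the receptor induces, differed by 0.04 ± 0.15 (adjusted p = 0.994).

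Across the liver few transcripts separated rosiglitazone from the other ligands. Of 9519 probe sets the 1 past the threshold on the higher side (0.0105%) was Obp3, by which the comparison was chosen, so it is not counted as a call. Besides it none passed higher in limma, and 1 was called lower (0.0105%). At an unadjusted p under 0.05 there were 247 higher (2.59%) and 309 lower (3.25%). The rosiglitazone arrays lay all above the 9 others for 54 probe sets (0.567%) and all below them for 49 (0.515%). The median 95% interval reached 0.45 in log2 to either side, so smaller differences were mostly beyond the precision of these arrays.

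The transcript called lower has no single gene symbol in the annotation. The word unnamed below means this, whether the annotation gives several symbols or none. Probe set 1388985_at had 704, 1543 and 1926 under rosiglitazone and 2481 to 4233 under the other ligands, with 2587, 2777 and 2996 in untreated obese liver and 2980, 2234 and 2860 in lean liver. All 3 rosiglitazone arrays lay below the 9 arrays of the other ligands and below the 3 untreated and 3 lean arrays. It fell by 1.27 ± 0.21 on the log2 scale (adjusted p = 0.0299). Without rosiglitazone replicate 1, its lowest array, the log2 difference was -0.84 ± 0.17 (adjusted p = 0.0466). Its call was lost in 12 of 30 alternatives, with adjusted p-values of 0.00793 to 0.202 in limma over all of them.

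Leaving Obp3 aside, none of the named transcripts that lay entirely above the other ligands passed the adjustment. Oxr1, an oxidation resistance gene, had 1491, 1756 and 1555 under rosiglitazone, 695 to 1214 under the other ligands and 1086, 1020 and 1159 in untreated obese liver. Its log2 difference from the other ligands was 0.74 ± 0.14 (adjusted p = 0.135). Cdh17, an intestinal and liver cadherin, had 306, 374 and 948 under rosiglitazone against 54.1 to 258 under the other ligands, a log2 difference of 1.45 ± 0.30 (adjusted p = 0.137). In lean liver Cdh17 reached 2173, 2040 and 2349, so like Obp3 it was highest there. The adenylate cyclase gene Adcy3 had 202, 318 and 288 under rosiglitazone and 35.6 to 164 under the other ligands (log2 difference 1.45 ± 0.39, adjusted p = 0.435). Ugdh, which makes the UDP-glucuronate used in glucuronidation, differed by 0.54 ± 0.13 (adjusted p = 0.227), and the complement regulator C4bpa by 0.53 ± 0.15 (adjusted p = 0.501).

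None of the named transcripts that lay entirely below the other ligands passed the adjustment either. Pappa2, a protease that cleaves insulin-like growth factor binding proteins, had 172, 243 and 163 under rosiglitazone, 249 to 467 under the other ligands and 387, 419 and 394 in untreated obese liver. Its log2 difference from the other ligands was -0.86 ± 0.18 (adjusted p = 0.137). The binding protein gene Igfbp2 had 268, 76.6 and 176 under rosiglitazone, against 301 to 748 under the other ligands (-1.29 ± 0.30, adjusted p = 0.227). Asl, the argininosuccinate lyase of the urea cycle, had 3459, 2531 and 3930 under rosiglitazone against 4082 to 6325 on probe set 1367754_s_at (-0.64 ± 0.16, adjusted p = 0.287), while a second Asl probe set, 1368916_at, overlapped the other ligands (-0.43, adjusted p = 0.612). The cell-surface proteoglycan Sdc4 differed by -0.77 ± 0.19 (adjusted p = 0.384). The mitochondrial channel gene Vdac1 differed by -0.47 ± 0.12 on probe set 1367706_at (adjusted p = 0.384).

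**Figure D2:**
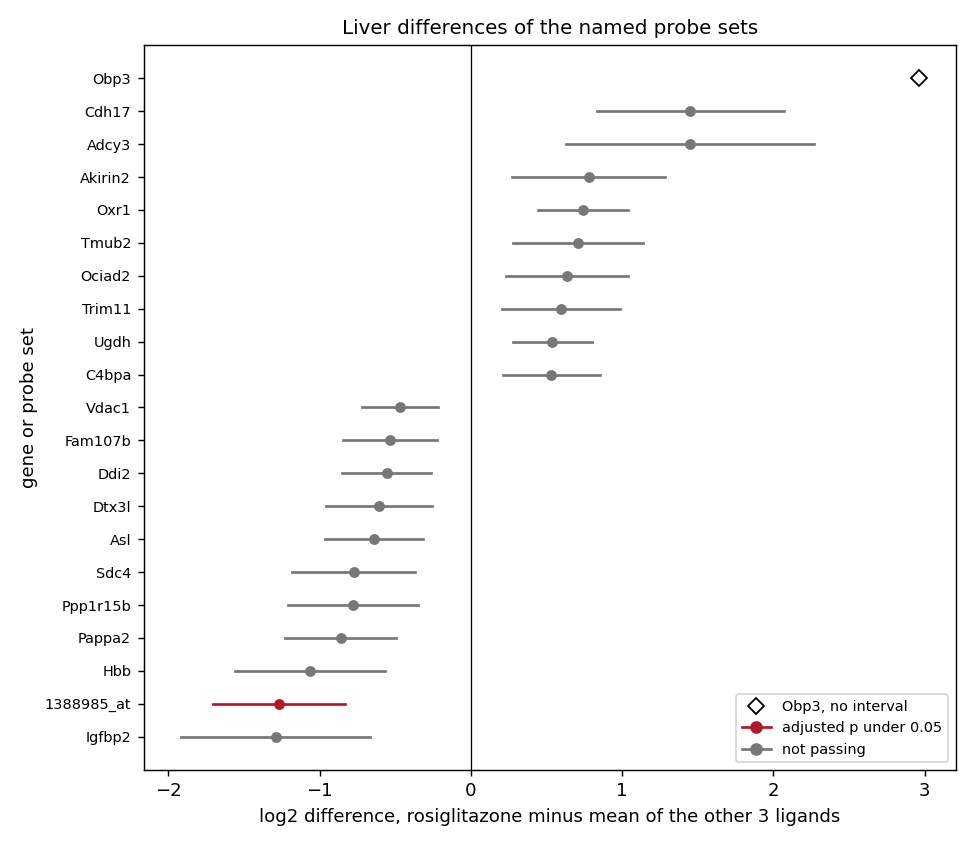
Log2 differences of rosiglitazone from the mean of the other 3 ligands in liver, with 95% intervals, for the named probe sets whose rosiglitazone arrays do not overlap the other 9 and for the unnamed call 1388985_at. Obp3 is drawn as a point without an interval at 2.96, and among the rest only 1388985_at passed, at -1.27.

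Against single ligands few transcripts passed. These 3 pairs share the rosiglitazone arrays and are not independent. For pioglitazone 0 of 9519 probe sets passed in limma (0%) and 476 had an unadjusted p under 0.05 (5%). For troglitazone 1 passed (0.0105%), the unnamed probe set 1370752_a_at, with 290, 300 and 295 under rosiglitazone and 51.9, 65.1 and 67.7 under troglitazone. It rose by 1.96 ± 0.31 in log2 (adjusted p = 0.0311), and the 2 groups did not overlap. For AG035029 1 probe set besides Obp3 passed, that of Ccnd3. Obp3, which is not counted as a call, is the other of the 0.021% past the threshold. Ccnd3, which encodes the cell cycle regulator cyclin D3, had 476, 545 and 408 under rosiglitazone and 203, 138 and 104 under AG035029. Ccnd3 rose by 1.59 ± 0.27 (adjusted p = 0.046), while its levels of 261 to 478 under pioglitazone and 318 to 437 under troglitazone overlapped those under rosiglitazone. With p-values adjusted over the 3 pairs together 1370752_a_at still passed for troglitazone (0.0105%), while for AG035029 Ccnd3 did not and only Obp3 lay past the threshold (0.0105%). None passed for pioglitazone (0%). Leaving out rosiglitazone replicate 1 put 18 probe sets past the threshold against AG035029 (0.189%), of which 16 were not Obp3, and leaving out troglitazone replicate 2 put 6, with Obp3 counted. The call of 1370752_a_at was lost in 17 of 28 alternatives and that of Ccnd3 in 18 of 30. The median 95% interval of a pair reached 0.55 to either side. Obp3 differed by 2.86 in log2 from pioglitazone, 2.52 from troglitazone and 3.50 from AG035029.

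Red cell transcripts were lower in rosiglitazone-treated liver than under the other ligands. Beta-globin (Hbb) had 9530, 6145 and 8692 under rosiglitazone, against 13239 to 33051 with a median of 15309 under the other ligands and 19942, 11273 and 16907 in untreated obese liver. Lean liver had 9449, 15438.5 and 9507, which overlapped the rosiglitazone range. The alpha-globin gene Hba-a3 had 1906, 2100 and 2185 under rosiglitazone and 2282 to 6461 under the other ligands. Alas2, the first enzyme of heme synthesis in red cell precursors, had 257, 254 and 293 under rosiglitazone and 379 to 1108 under the other ligands. The rosiglitazone arrays of all 3 tested erythroid genes lay below the 9 others, where 0.515% of all probe sets did. Those of Hbb and Alas2 also lay below the untreated obese arrays, while those of Hba-a3 overlapped them. Their log2 differences were -1.06 ± 0.24, -0.71 ± 0.22 and -0.85 ± 0.26, and none passed (adjusted p = 0.168, 0.501 and 0.501). The summed signal of the 4 erythroid markers on the array was 8698 to 11796 under rosiglitazone, 16027 to 40794 under the other ligands, 13963 to 23884 in untreated obese liver and 11859 to 18003 in lean liver. In whole liver fewer red cells and less RNA per cell cannot be told apart.

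Without the array of highest globin signal, troglitazone replicate 2, the 3 genes remained below the other ligands at an unadjusted p under 0.05, as they did with each other liver array left out in turn. In muscle, whose arrays the rule did not use, 3 of 4 erythroid genes were lower under rosiglitazone at an unadjusted p under 0.05 (background 4.39%), with a list median of -1.06 in log2, and a count of 2 without rosiglitazone replicate 1 or 3. In adipose tissue 0 of 4 were lower and 2 were higher (background 4.88%), with a median of 0.33. None of these passed the adjustment, the tissues may share rats, and the difference between tissues was not tested. Among the other marker lists, summed macrophage signals of 14944 to 20565 under rosiglitazone overlapped the 13532 to 20712 of the other ligands, and those of endothelial, stellate, lymphocyte and adipocyte markers overlapped as well. The macrophage marker Cd68 alone had its rosiglitazone arrays above all those of the other ligands, where 0.567% of all probe sets did. Its log2 difference of 0.61 did not pass, and the other tested macrophage markers overlapped.

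Transcripts induced by interferon also tended to be lower than under the other ligands. Of 17 tested members of the interferon and antigen presentation list 8 were lower at an unadjusted p under 0.05, where 3.25% of all probe sets were, and 0 were higher. The list median was -0.38 in log2, beside 0.01 over all probe sets. None passed the adjustment, and no member separated the rosiglitazone arrays from all 9 others. Promoters of interferon-induced genes often carry an element of repeated GAAA letters. The promoters of 3 of the lower members are printed because they hold this element, searched as GAAA, 2 bases of any kind and GAAA again on either strand, in capitals. They are Oas1a at chr12:41330216-41330515 on the plus strand, and Irf7 at chr1:205799974-205800273 and Rsad2 at chr6:48788071-48788370 on the minus strand, all from RefSeq GRCr8.
Oas1a: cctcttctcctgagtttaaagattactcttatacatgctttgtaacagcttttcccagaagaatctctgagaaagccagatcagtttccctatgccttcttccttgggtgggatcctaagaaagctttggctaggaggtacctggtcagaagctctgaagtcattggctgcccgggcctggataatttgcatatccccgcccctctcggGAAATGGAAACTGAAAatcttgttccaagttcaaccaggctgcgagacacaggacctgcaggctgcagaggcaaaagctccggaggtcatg
Irf7: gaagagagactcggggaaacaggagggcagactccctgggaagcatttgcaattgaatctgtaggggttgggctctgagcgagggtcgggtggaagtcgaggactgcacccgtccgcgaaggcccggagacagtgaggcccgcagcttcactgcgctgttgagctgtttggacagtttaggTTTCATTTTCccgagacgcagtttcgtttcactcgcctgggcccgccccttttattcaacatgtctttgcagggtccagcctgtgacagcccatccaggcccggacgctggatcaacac
Rsad2: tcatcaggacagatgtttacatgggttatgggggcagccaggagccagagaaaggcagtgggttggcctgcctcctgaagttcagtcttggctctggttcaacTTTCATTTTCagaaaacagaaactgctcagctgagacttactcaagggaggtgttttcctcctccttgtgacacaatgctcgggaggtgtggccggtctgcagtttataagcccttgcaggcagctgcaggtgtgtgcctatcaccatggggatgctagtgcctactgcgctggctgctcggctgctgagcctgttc
The motif occurred in 1312 of 33469 promoters of this length (3.92%), in 9 of 14 promoters of the tested list members (64.3%) and in 3 of 5 promoters of the lower members (60%), the 3 printed here. A match is a description of the letters only.

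Oas1a, an antiviral enzyme that senses double-stranded RNA, had 206, 340 and 378 under rosiglitazone and 356 to 793 with a median of 606 under the other ligands. Untreated obese liver had 448, 285 and 276, so the rosiglitazone arrays were low against the other ligands and within or near the untreated range. The log2 difference from the other ligands was -0.94 ± 0.22 (adjusted p = 0.249), and that from untreated obese liver was -0.13 ± 0.27 (adjusted p = 0.933). Usp18, which removes the ubiquitin-like modifier Isg15 and damps interferon signalling, had 456, 235 and 351 under rosiglitazone, against a median of 824 and a range of 330 to 1306 (-1.25 ± 0.32, adjusted p = 0.391). Irf7, the master factor of interferon production, had 690, 761 and 1063 against 886 to 1591 (-0.61 ± 0.17, adjusted p = 0.456). The antiviral GTPases Mx2 and Mx1 differed by -1.38 ± 0.48 and -0.63 ± 0.23, and Ifit1 and Rsad2 by -0.94 ± 0.30 and -0.58 ± 0.21. On troglitazone replicate 2 Oas1a (356), Usp18 (330) and Irf7 (886) were low as well. Without that array the log2 difference of Oas1a was -1.07 and passed (limma, adjusted p = 0.0396), the only one of 30 alternatives in which it did.

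**Figure D3:**
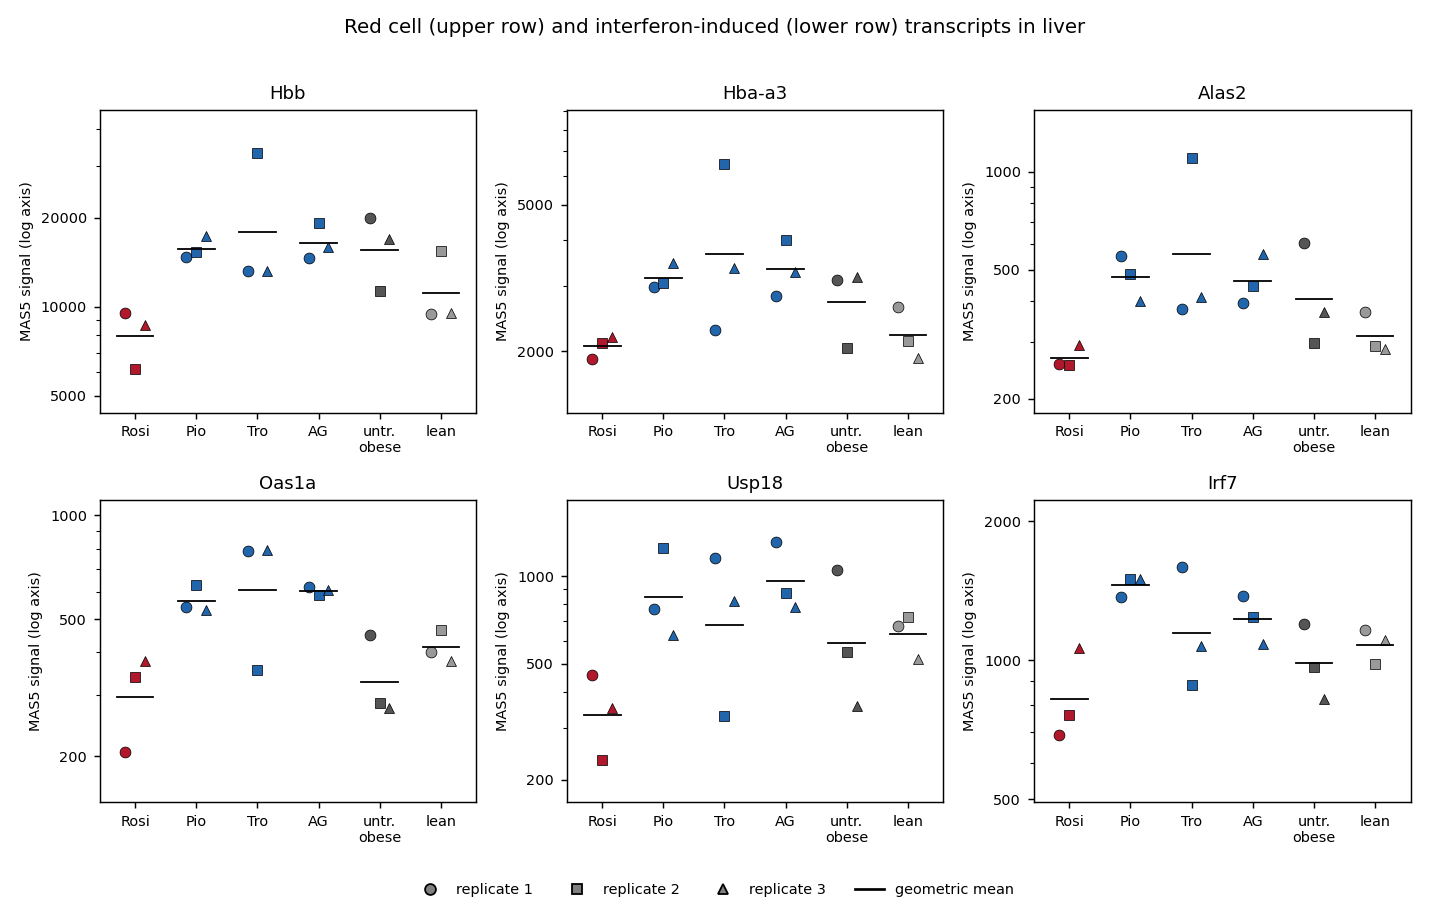
MAS5 signals (log axis) of 3 red cell genes (upper row) and 3 interferon-induced genes (lower row) on every liver array, by group; symbols mark replicates and bars the geometric mean. The red cell genes of the rosiglitazone arrays lie below all 9 arrays of the other ligands, while the interferon-induced genes overlap them through troglitazone replicate 2, at 356 for Oas1a, 330 for Usp18 and 886 for Irf7.

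The interferon count depended on single arrays. Without rosiglitazone replicate 1 it was 4 of 17, and without that array and troglitazone replicate 3 it was 3. In adipose tissue 8 of 17 members were lower under rosiglitazone at an unadjusted p under 0.05, where 4.33% of all probe sets were. The adipose list median was -0.23, and the count was 3 without rosiglitazone replicate 2 and 4 without rosiglitazone replicate 3. Mx2 differed most there, by -1.26 ± 0.29 (adjusted p = 0.141). In muscle 4 of 13 members were lower, beside 4.39% of all probe sets, with a median of -0.18. Irf7 and Rsad2 differed in muscle by -1.39 ± 0.31 and -1.24 ± 0.32 (both adjusted p = 0.265). With all arrays no member passed the adjustment in any of the 3 tissues.

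The known metabolic targets of PPARgamma did not separate rosiglitazone from the other ligands at the adjusted threshold. Pparg itself differed by 0.01 ± 0.25 (95% interval -0.52 to 0.54, adjusted p = 0.998), and its partner Rxra by -0.22 ± 0.32 (adjusted p = 0.967). Ppara and the coactivator gene Ppargc1a were below the filter. Of 19 tested genes of PPARgamma targets and lipid storage 3 were higher at an unadjusted p under 0.05 and 0 lower, beside 2.59% and 3.25% of all probe sets, with a list median of -0.04. These were G0s2, an inhibitor of fat breakdown, the glycerol kinase Gk and the lipid droplet protein Plin4, at 0.60 ± 0.23, 0.77 ± 0.30 and 1.02 ± 0.40 (adjusted p = 0.663, 0.673 and 0.677). G0s2 had 10713, 11510 and 9298 under rosiglitazone and 3818 to 10354 under the other ligands. Of 24 tested PPAR targets of fatty acid oxidation 1 was higher and 2 were lower, beside the same 2.59% and 3.25%, with a median of -0.05.

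Lipid and sterol synthesis gave few differences. Fatty acid synthase (Fasn) had 6461, 3865 and 3086 under rosiglitazone, above the 1465 to 3040 of the other ligands, while untreated obese liver had 2293, 2838 and 9096. Its log2 difference was 0.90 ± 0.33 (adjusted p = 0.661). Of 17 tested genes of fatty acid synthesis 2 were higher and 1 lower at an unadjusted p under 0.05, beside 2.59% and 3.25% of all probe sets. Of 15 tested cholesterol genes none had an unadjusted p under 0.05, and 3 lay above 0, where 51.3% of all probe sets did, with a median of -0.21. Of 17 bile acid genes 4 were lower, beside 3.25% of all probe sets, and 0 higher. Cyp7a1, the rate-limiting enzyme of bile acid synthesis, had 1006, 557 and 1130 under rosiglitazone and 489 to 6256 under the other ligands, a log2 difference of -1.19 ± 0.50 (adjusted p = 0.776). Cyp8b1, which sets the cholic acid share of bile, differed by -0.74 ± 0.27 (adjusted p = 0.638).

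Among plasma protein genes 6 of 29 were lower at an unadjusted p under 0.05, beside 3.25% of all probe sets, and 0 higher. They were Serpina3c, transthyretin (Ttr), fetuin A (Ahsg), Apoa4, hepcidin (Hamp) and Apoc3, at -0.61 to -0.28 in log2, with adjusted p-values of 0.677 to 0.849. The summed signal of 7 hepatocyte markers was 193617 to 317694 under rosiglitazone and 233898 to 317210 under the other ligands, and the lowest was that of rosiglitazone replicate 1. Its part in these differences was not tested. Of 22 amino acid breakdown genes 3 were lower, beside 3.25% of all probe sets: Asl, the taurine enzyme Csad and the tyrosine-degrading Hpd.

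Against untreated obese liver rosiglitazone changed 6 probe sets, 1 higher (0.0105%) and 5 lower (0.0525%). Fmo1, a flavin monooxygenase that oxidises drugs, had 1647, 1559 and 1319 under rosiglitazone and 589, 781 and 512 in untreated obese liver, and rose by 1.26 ± 0.18 (adjusted p = 0.00581). Mgmt, which repairs alkylated guanine, had 754, 393 and 518 under rosiglitazone and 1880, 1647 and 1934 untreated, and fell by 1.72 ± 0.25 on the log2 scale (adjusted p = 0.00581). Csad, which makes the taurine precursor hypotaurine, had 1100, 937 and 1270 under rosiglitazone and 3636, 2632 and 2219 untreated, and fell by 1.32 ± 0.23 (adjusted p = 0.0266). Apoa4, an apolipoprotein of lipid-laden liver and intestine, had 8779, 5018 and 6937 under rosiglitazone and 13955, 16876 and 16829 untreated, and fell by 1.23 ± 0.20 (adjusted p = 0.0187). The unnamed probe sets 1367559_at and 1368180_s_at fell by 0.93 and 0.91. The number called depended on single arrays. Omitting rosiglitazone replicate 1 gave 50 calls (0.525%), and omitting rosiglitazone replicate 3 gave 19. Omitting untreated replicate 2 gave 22, omitting AG035029 replicate 3 gave 11, and none were left when either rosiglitazone replicate 2 or untreated replicate 3 was omitted.

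The other 3 ligands as a mean put 36 probe sets past the threshold against untreated obese liver, 22 higher (0.231%) and 14 lower (0.147%). Of the lower ones 12 were not Obp3, whose values chose the comparison. The mean had 9 arrays behind it in place of 3. Without untreated replicate 2 the count was 74. Both comparisons use the same untreated arrays, so their values are set side by side and not as independent evidence. The difference under rosiglitazone was the smaller one in size for 29 of the 36, and for 27 of the 34 that were not Obp3. The median size was 0.94 in log2 under rosiglitazone and 1.31 under the others over the 36, and 0.98 and 1.28 without Obp3. The probe sets were picked by the other ligands' values, which by itself favours a smaller difference under rosiglitazone. These counts and medians are a description only. For some transcripts the values were alike. Igfbp1, an insulin-repressed binding protein, had 6127, 10186 and 3333 under rosiglitazone, a median of 6522 under the other ligands and 1159, 2049 and 1096 in untreated obese liver. Its log2 difference from untreated was 2.09 ± 0.42 under rosiglitazone (adjusted p = 0.069) and 2.23 ± 0.34 under the others (adjusted p = 0.00263). The insulin receptor substrate gene Irs2 differed by 1.78 ± 0.42 under rosiglitazone (adjusted p = 0.114) and 1.68 ± 0.34 under the others (adjusted p = 0.0265). The fatty acid elongase Elovl5 differed on probe set 1388348_at by -1.01 ± 0.20 (adjusted p = 0.069) and -0.997 ± 0.16 (adjusted p = 0.00541). A second Elovl5 probe set, 1387630_at, was less alike. It had 1602, 297 and 570 under rosiglitazone, 678 to 1696 under the other ligands and 2334, 2460 and 846 untreated. Of the 34 that were not Obp3, rosiglitazone reached at least 50% of the other ligands' difference for 30. Called for rosiglitazone too were 3, Mgmt, Apoa4 and Fmo1.

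Besides the 2 Obp3 probe sets, Igfbp2, Asl on probe set 1367754_s_at, Eif4ebp3 and the unnamed 1374244_at had less than 50% of the other ligands' difference under rosiglitazone. Igfbp2, which binds insulin-like growth factors in the blood, differed from untreated obese liver by 0.43 ± 0.37 under rosiglitazone and rose by 1.72 ± 0.30 under the others (adjusted p = 0.775 and 0.00683). Its signals were 268, 76.6 and 176 under rosiglitazone, 301 to 748 under the others and 62.3, 171 and 120 untreated. Asl differed by 0.46 ± 0.19 under rosiglitazone and rose by 1.10 ± 0.16 under the others (adjusted p = 0.455 and 0.00126). Eif4ebp3, a binding partner of the translation factor eIF4E, differed by 0.90 ± 0.34 and rose by 1.84 ± 0.28 (adjusted p = 0.402 and 0.00254). Tm7sf2, a sterol reductase, and Por, the electron donor of the cytochromes P450, had values between 54.5 and 61% of those of the other ligands.

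**Figure D4:**
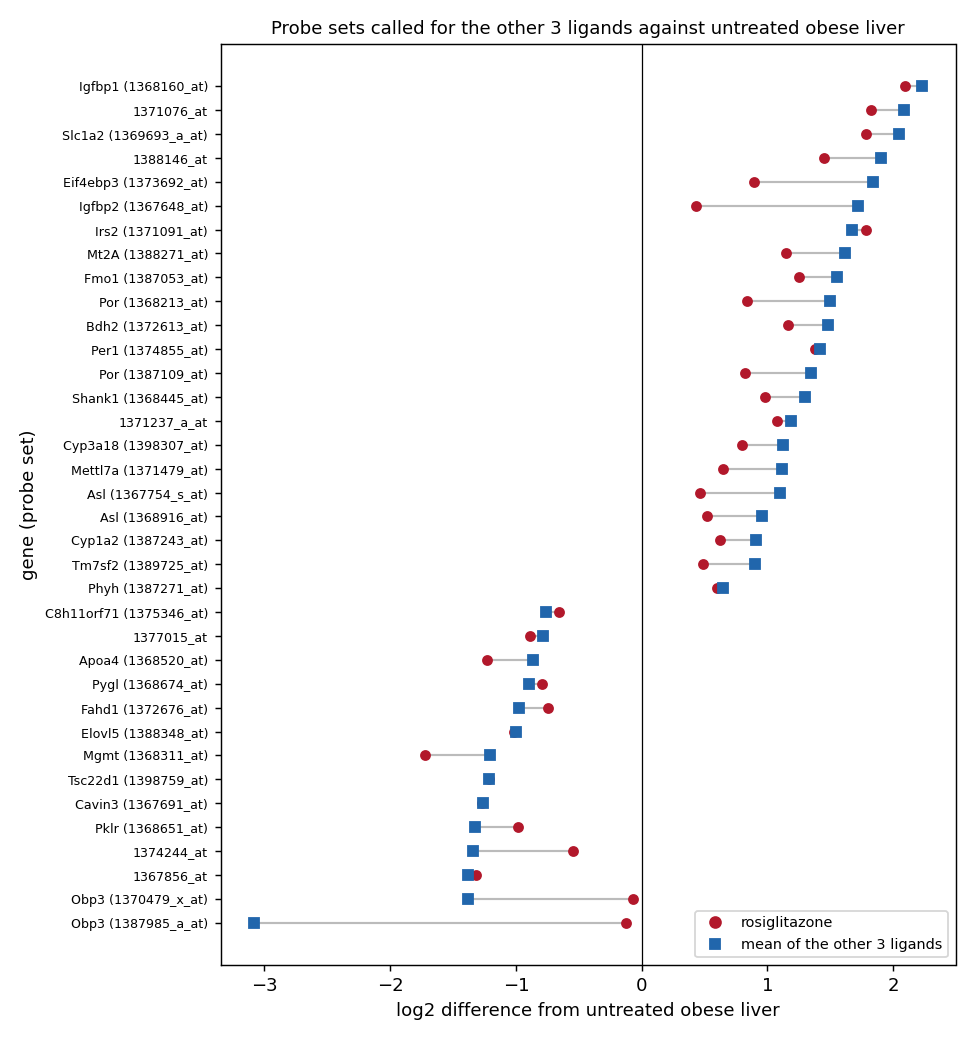
Log2 differences from untreated obese liver for the 36 probe sets called for the other 3 ligands, with rosiglitazone as circles and the mean of the other ligands as squares. The rosiglitazone circle is nearer to 0 for 29 of the 36, which the choice of probe sets by the other ligands' values favours. The pair of Igfbp1 lies at 2.09 and 2.23, and Igfbp2 (0.43 and 1.72) and the Obp3 probe sets have wide gaps.

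The pattern of Obp3, with the rosiglitazone and untreated obese arrays together on one side of all 9 arrays of the other ligands, was shared by few probe sets: 4 lay above (0.042%) and 3 below (0.0315%). Those with a name were Obp3, Fads3, Ociad2 and Emc2 above, and Igfbp2 and Asl below. Fads3, a member of the fatty acid desaturase family, had 236, 280 and 275 under rosiglitazone, 30 to 222 under the other ligands and 282, 237 and 435 untreated. Its log2 difference from the other ligands was 0.88 ± 0.38 (adjusted p = 0.801). Ociad2 had 654, 763 and 595 under rosiglitazone, 294 to 577 under the others and 707, 617 and 701 untreated (0.63 ± 0.19, adjusted p = 0.501). Emc2, a subunit of the endoplasmic reticulum membrane complex, differed by 0.27 ± 0.13 (adjusted p = 0.844). None of the 3 was at a distance like that of Obp3.

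Leaving out rosiglitazone replicate 1 put more probe sets past the threshold against the other ligands, 4 higher (0.042%), of which 2 were those of Obp3 and are not counted as calls, and 12 lower (0.126%). The 14 calls besides Obp3 were 2 higher and 12 lower, 10 of them of named genes and 4 unnamed. Against AG035029 in that fit 12 of the 14 were also called, where 0.189% of all probe sets were past the threshold. Both comparisons use the same rosiglitazone and AG035029 arrays, so this overlap is not independent evidence. Ctnnb1, which encodes beta-catenin, had 784 on replicate 1 against 104 and 76.4 on replicates 2 and 3, with 238 to 794 under the other ligands and 563 to 750 in untreated obese liver. Ctnnb1 fell by 2.15 ± 0.28 on the log2 scale without replicate 1 (adjusted p = 0.00217), and the value with all arrays was -1.20. Hspa9, a mitochondrial chaperone, had 3192 on replicate 1 against 864 and 1522, with 2163 to 3038 under the other ligands. It fell by 1.15 ± 0.18 without replicate 1 (adjusted p = 0.0123), against -0.66 with all arrays. Ssr3, a subunit of the translocon-associated complex of the endoplasmic reticulum, and Hnrnpf, a splicing regulator, fell by 1.87 ± 0.32 and 1.13 ± 0.18 (adjusted p = 0.0174 and 0.0123). Igfbp2 fell by 1.65 ± 0.33 (adjusted p = 0.0466) and Cdh17 rose by 1.76 ± 0.33 (adjusted p = 0.0257).

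On replicates 2 and 3 all 14 lay outside the range of the other ligands, while replicate 1 lay inside that range for 8 of them. The 14 were picked by a fit in which replicates 2 and 3 were the only rosiglitazone arrays. That by itself favours such a gap, so these counts are a description only. The beta-actin 3' to 5' ratio was higher on those 2 rosiglitazone arrays (3.27 and 2.22) than on replicate 1 (1.82). Their median correlation with the other liver arrays was lower (0.910 and 0.918 against 0.933). The part of either in these calls was not tested. Without troglitazone replicate 3, the array with muscle transcripts, only Obp3 lay past the threshold (0.0105%), and without both arrays 17 did (0.179%). Without troglitazone replicate 2 there were 4, Obp3 counted in both. Obp3 differed from the other ligands by 3.15 in log2 without rosiglitazone replicate 1, against 2.96 with all arrays.

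**Figure D5:**
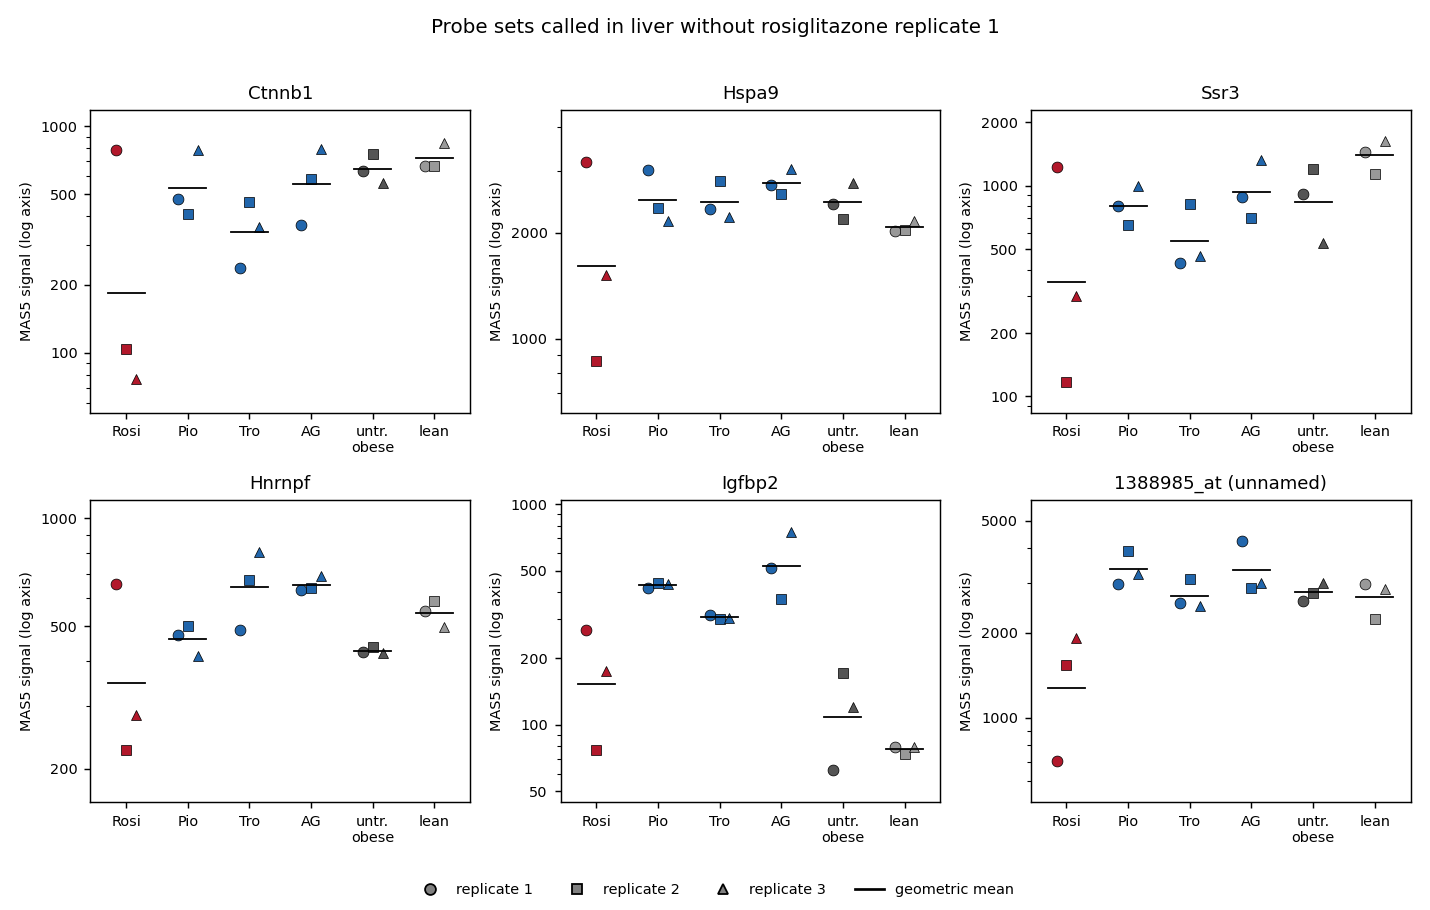
MAS5 signals (log axis) on every liver array, by group, of 6 probe sets called against the other ligands once rosiglitazone replicate 1 was left out; symbols mark replicates and bars the geometric mean. For Ctnnb1, Hspa9, Ssr3 and Hnrnpf replicate 1 (circle) sits with or above the other ligands, as at 784 for Ctnnb1, and replicates 2 and 3 lie below them.

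The same contrast in the other tissues, whose arrays the rule did not use, gave other genes. In adipose tissue 1 probe set was higher (0.0105%) and 1 lower (0.0105%). Cotl1, a coactosin-like actin-binding protein of leukocytes, had 904, 1012 and 781 under rosiglitazone, 211 to 885 under the other ligands and 2028, 1388 and 1772 in untreated obese tissue. It rose by 1.10 ± 0.17 (adjusted p = 0.0269), a mean level between those of the other ligands and untreated tissue, and its call was lost in 9 of 29 alternatives (adjusted p of 0.00251 to 0.22). F3, the tissue factor that starts blood clotting, had 1277, 1181 and 1344 under rosiglitazone, 1740 to 2831 under the other ligands and 1129, 1096 and 1002 untreated. It fell by 0.69 ± 0.09 (adjusted p = 0.00306), a call kept in all 29 alternatives. The adipose count was 14 without rosiglitazone replicate 3, 7 without troglitazone replicate 1 and 1 to 5 with another single array left out. In muscle 0 probe sets passed in limma (0%) and 784 had an unadjusted p under 0.05 (8.24%), with 4 called without troglitazone replicate 3.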

How the data were processed

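RNA of 54 arrays was measured. Per the labels' protocols, total RNA pooled from 2 rats was labelled as biotinylated cRNA and hybridised to Affymetrix Rat Expression 230A arrays, and the deposited intensity values are signals that the authors computed with MAS5. Its version is not given in the sources used here. On every array the 2% trimmed mean of the deposited signals was 500. Control probe sets (57) were removed, leaving 15866, of which 12783 had 1 gene symbol, 312 several and 2771 none. Signals entered as log2(signal + 20), and in each tissue the 9519 probe sets above the 40th percentile of mean level were kept. One limma fit (version 3.58.1 in R 4.3.3) per tissue covered all 18 arrays, with 12 residual degrees of freedom and trended empirical Bayes moderation. P-values were adjusted by Benjamini-Hochberg over all tested probe sets. No probe-level data were used, so absent calls and cross-hybridisation could not be examined.

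The comparison, its members and the 29 gene lists were chosen with earlier results of these data known. Genes were named where they passed in a comparison, where their rosiglitazone arrays did not overlap the other 9, with up to 10 in each direction by p, or as the list members with the smallest p. Further list members, and the genes described without rosiglitazone replicate 1, were named after their values were seen. On simulated data for rosiglitazone against the other ligands 200 probe sets were changed. Of these, 195 were tested for a log2 change of 1 and 183 for a change of 2. Among the tested ones 63.1% and 96.7% were recovered, and 3.91% and 6.84% of the calls were false. The simulated noise was drawn independently for each array, so no array stood apart as in these data. Replicate numbers did not pair the arrays, since the residuals of same-numbered liver arrays had a mean correlation of 0.00322, with 2 of 45 over 0.1. The number of arrays limits the precision.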

Additional observations from a re-analysis of the deposited data

Results flagged for a closer look

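Sdc4, a cell-surface proteoglycan, differed in opposite directions between tissues. In liver all 3 rosiglitazone arrays (5972, 5339 and 3642) lay below the 9 arrays of the other ligands (6313 to 10745), a log2 difference of -0.77 ± 0.19 (limma, adjusted p = 0.384). In adipose tissue all 3 (2213, 2340 and 2034) lay above them (1091 to 1635), a log2 difference of 0.65 ± 0.18 (adjusted p = 0.252). Neither value passed the adjustment, and the difference between the tissues was not tested.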

How the results depend on the processing

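Calls were counted with all arrays for rosiglitazone against the other ligands (2), pioglitazone (0), troglitazone (1), AG035029 (2) and untreated obese liver (6), for the other ligands against untreated obese liver (36), and for rosiglitazone against the other ligands in adipose tissue (2) and muscle (0). Liver counts hold Obp3 probe sets that lay past the threshold, and these are not taken as results. A pseudocount of 80 gave 1 against pioglitazone and 1 against AG035029. No filter gave 0 against troglitazone, 1 against AG035029 and 1 in adipose tissue. A filter at the 60th percentile gave 0 against troglitazone, 15 against untreated and 1 in muscle. Quantile normalization gave 1 against the other ligands, and median centring gave 3 against pioglitazone, 4 against AG035029 and 1 in muscle. Moderation without a trend gave 1 against the other ligands, 0 against AG035029 and 2 against untreated. Array weights gave 0 against troglitazone, 1 against AG035029, 2 against untreated and 1 in adipose tissue. A replicate block, for numbers that did not pair the arrays, gave 1 against the other ligands, 2 against troglitazone and 5 in adipose tissue. A threshold of 0.01 gave 1 against the other ligands, 0 against troglitazone, 1 against AG035029, 2 against untreated, 20 for the other ligands against untreated and 1 in adipose tissue. A fit of only the arrays compared gave 0 against the other ligands, 0 against troglitazone, 3 against untreated and 1 in adipose tissue. Leaving out rosiglitazone replicate 1 and troglitazone replicate 3, an alternative chosen after seeing the data, gave 17 against the other ligands, 3 against pioglitazone, 0 against troglitazone, 18 against AG035029, 46 against untreated and 3 of the interferon list.

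With 1 array left out at a time the counts ranged from 1 to 16 against the other ligands, 0 to 2 against pioglitazone, 0 to 2 against troglitazone, 0 to 18 against AG035029, 0 to 50 against untreated, 19 to 74 for the other ligands against untreated, 1 to 14 in adipose tissue and 0 to 4 in muscle. The interferon counts ranged from 4 to 8 in liver, 3 to 8 in adipose tissue and stayed at 4 in muscle, and the erythroid counts were 3 in liver and 2 to 3 in muscle. No named value changed its sign past a threshold. Over single genes 3559 results kept their side of the threshold, 269 no longer passed and 7 newly passed. The 3559 include results that passed neither with all arrays nor in the alternative. They also include every Obp3 result, for which the side of the threshold was not recorded. Obp3 (1387985_a_at) differed by 2.67 to 3.15 over 30 alternatives. The cause of these shifts was not tested, and 3 arrays of pooled RNA a group limit every count.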
